A study of Mus musculus with 10 samples.

Results

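The response to rosiglitazone was described in colonic organoids from mice labelled as lacking PPARγ in the intestinal epithelium, on 5 of the 10 arrays of the series. These were chosen by genotype label alone: 3 arrays of organoids treated with rosiglitazone, from mice 46, 44 and 45, and 2 of vehicle-treated organoids, from mice 46 and 44. Rosiglitazone was given at 1 µM and vehicle was DMSO at 0.1%, each for 24 h. The knockout mice were males homozygous for a Pparg allele with loxP sites around exons 1 and 2, and carried Cre recombinase under the villin promoter, which is active in epithelial cells of the intestine. Wild-type littermates gave the other 5 arrays, with rosiglitazone for mice 42, 47 and 48 and vehicle for mice 42 and 47. All mice were on a C57BL/6J background, and their ages are not given in the sources used here. Every organoid, vehicle controls included, grew from isolated crypts in Matrigel, in a medium with Wnt, R-spondin, Noggin, mEGF, nicotinamide, A83 and a p38 inhibitor. Each array of a group is a separate mouse, whereas the paired arrays of mice 46 and 44 share a donor. Mouse 45 has no vehicle array here, so drug and donor cannot be told apart in its single array.

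PPARγ is a nuclear receptor that binds fatty acids and, as a heterodimer with RXR, activates genes of lipid storage and fatty acid oxidation. In the colon it is most abundant in the differentiated epithelium. Rosiglitazone is a thiazolidinedione agonist of PPARγ, and proteins other than PPARγ, among them the mitochondrial pyruvate carrier and the mitochondrial outer membrane protein mitoNEET, are known to bind drugs of this class. The comparison asks what the drug does when its main receptor has been deleted from the epithelium.

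Values are RMA expression levels on the log2 scale, so a difference of 1 is a doubling, and no level of a gene is set against that of another. The Pparg probe set did not show the deletion. It read 8.58 and 8.47 in the vehicle arrays of mice 46 and 44 and 8.78, 8.41 and 7.37 in the rosiglitazone arrays of mice 46, 44 and 45, against 7.59 to 8.41 in wild type. The sources used here do not give the position of its probes relative to the floxed exons, so it checks neither the deletion nor the labels, and knockout below means labelled as such. The organoids read as epithelium. The median of 15 epithelial markers was 9.91, with Epcam between 10.50 and 11.05 and Vil1 between 9.65 and 10.07 on the 5 arrays, whereas the medians of the fibroblast, immune, endothelial and adipocyte lists were 2.80, 2.46, 2.56 and 2.54. In bulk RNA, fewer cells of a type and less RNA per cell cannot be told apart.

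The array of mouse 45 stood apart from the other 4 knockout arrays. On it 74 genes were at least 1 log2 unit above all of the others and 67 at least 1 below, against 0 to 14 such genes on any other knockout array. Its values over 18820 genes correlated at r = 0.988 to 0.991 with the wild-type arrays, at 0.990 and 0.989 with the vehicle and rosiglitazone arrays of mouse 44, and at 0.985 and 0.986 with those of mouse 46. Closeness to wild type was not particular to mouse 45. The arrays of mouse 44 correlated at 0.991 to 0.993 with wild type and at 0.988 to 0.990 with those of mouse 46. Of 24 genes that separated all 4 arrays of mice 46 and 44 from all 5 wild-type arrays by more than 0.5, its value lay nearer the knockout mean for 14, namely 3 of the 9 that were higher in the knockout and 11 of the 15 that were lower. Predicted gene models were left out of the 24. The genes were selected on mice 46 and 44 and not on mouse 45, so a lean of mouse 45 towards wild type is built into the choice. The counts thus do not check its label. Because its array stood apart, fitted knockout differences and list counts are given with and without mouse 45, and its own value stands beside those of the pairs.

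No gene passed the test for a rosiglitazone response in the knockout. With limma, fitted over all 10 arrays and adjusted by the Benjamini-Hochberg method, 0 of 23099 annotated probe sets had an adjusted p under 0.05 (0%), and the smallest adjusted p was 0.44. At an unadjusted p under 0.05 there were 706 probe sets, 272 higher (1.18%) and 434 lower (1.88%) with the drug, where 1155 would be 5% of those tested. With the mouse as a random block 1 probe set was called (0.00433%), and with the mouse as a fixed block none was, the smallest adjusted p being 0.64. Counts at an unadjusted p under 0.05 were 1560 and 1729 with these blocks, 695 without mouse 45, 1263 without the rosiglitazone array of mouse 46 and 1776 without the vehicle array of mouse 44, with 0 calls after adjustment in each of these last 3. The split between higher and lower depends on the scaling: with each array centred on its median, 616 were higher and 156 lower, and with quantile normalization repeated over the annotated probe sets 400 and 427. Likewise 46% of the 18820 genes had a fitted difference above 0, 49% without mouse 45, 63.1% after centring and 49.3% after quantile normalization. Centring moved every knockout difference up by 0.07, and the median gene from -0.02 to 0.06.

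The called probe set belongs to Zmpste24, which encodes the protease that matures prelamin A. This probe set, 10516020, was dim, at 3.20 and 3.20 with vehicle and 2.23, 2.16 and 2.28 with rosiglitazone in mice 46, 44 and 45. It was lower on all 3 treated arrays, without overlap. The limma difference was -0.98 (SE 0.13, adjusted p = 0.44), -1.004 without mouse 45, and with the random block -0.99 (SE 0.11, adjusted p = 0.046). The brighter probe set of the same gene differed by -0.10 (SE 0.13, adjusted p = 1.00) at a mean level of 8.48, and by -0.15 without mouse 45, so the 2 probe sets of Zmpste24 disagree.

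Other genes with small unadjusted p-values did not overlap between the groups. Kir3dl1, a killer cell receptor, was dim, at 2.06 and 1.74 with vehicle and 2.82, 2.76 and 2.41 with the drug in mice 46, 44 and 45 (unadjusted p = 0.000707). Wfdc6a and Kif2b, also dim, lay lower with the drug, at 2.22, 2.27 and 2.11 against 3.03 and 2.82, and at 1.99, 2.06 and 2.19 against 2.75 and 2.69. Among brighter genes, Gse1 read 5.02 and 5.37 against 5.73, 5.79 and 5.95, Bccip, a BRCA2-interacting protein, 5.66 and 5.76 against 6.14, 6.23 and 6.24, and the Mediator subunit Med9 5.49 and 5.40 against 5.86, 6.07 and 6.07. The differences of these 3 were 0.63, 0.50 and 0.55 (SE 0.15, 0.13 and 0.14), or 0.57, 0.48 and 0.52 without mouse 45, and each limma adjusted p was 1.00.

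The paired mice shared no pattern of differences across all genes. Across 18820 genes the treated-minus-vehicle difference of mouse 46 and that of mouse 44 had Pearson's r of -0.02 and Spearman's rho of -0.02, and r was 0.04 over the 9410 genes above the median level. For wild-type mice 42 and 47 the same r was 0.14. Genes within an array are not independent, so these values are descriptions of the arrays. The spread of the differences was 0.28 within mouse 46 and 0.26 within mouse 44 (SD over genes), below the 0.41 between their vehicle arrays and the 0.37 between their rosiglitazone arrays.

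**Figure D1:**
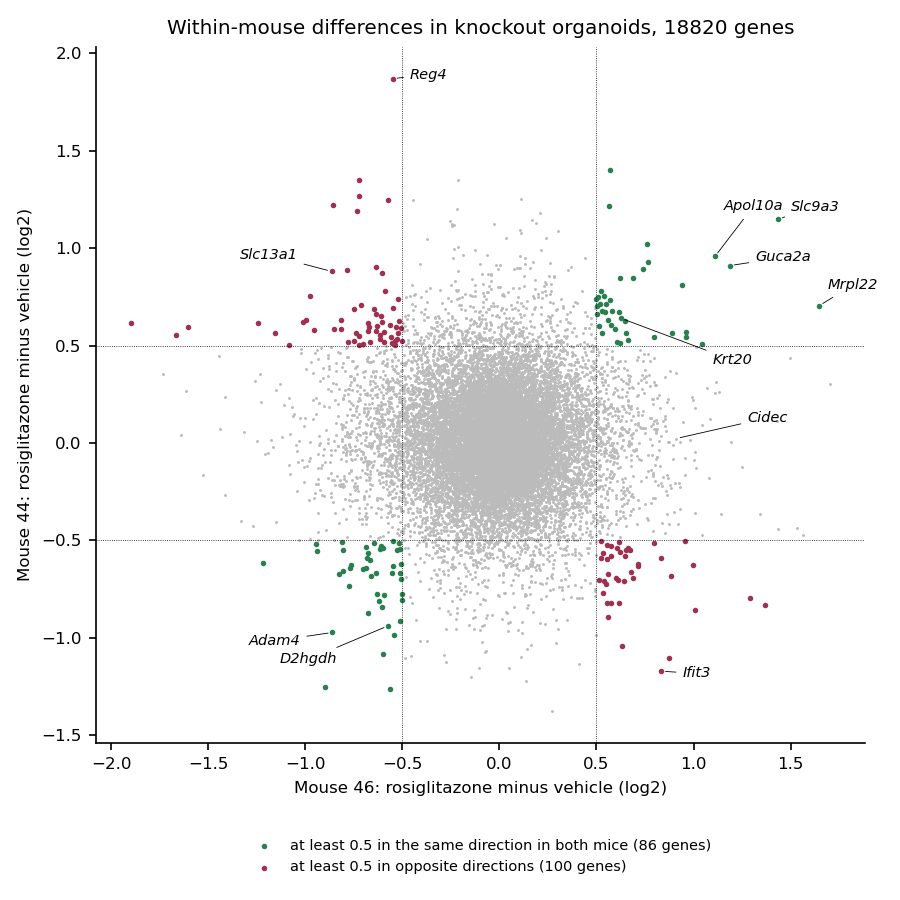
Within-pair difference of mouse 46 (x axis) against that of mouse 44 (y axis), rosiglitazone minus vehicle on the log2 scale, with a point for each of 18820 genes. The cloud has no slope (r = -0.02), and of the genes past 0.5 in both mice 41 were higher in both, 45 lower in both and 100 opposite.

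A step of at least 0.5 was met by 1526 genes in mouse 46 and 1139 in mouse 44. It went up in both for 41 genes (0.218%), down in both for 45 (0.239%) and in opposite directions for 100 (0.531%). With the arrays centred these were 96 up and 18 down. The array of mouse 45 lay above both vehicle arrays for 25 of the 41 and below both for 34 of the 45, beside 27.7% and 40.4% of all genes. All 3 treated arrays did so for 21 and 32. The steps and these counts share the vehicle arrays, so the counts are a description. None of the 41 was up by 0.5 in both wild-type pairs, where 56 genes were, and 1 of the 45 was down in both, where 31 were. Slc9a3 was the 1 gene past a step of 1 in the same direction in both knockout mice.

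Known PPAR target genes were split between higher and lower. Of 45 measured targets 26 were higher and 19 lower with rosiglitazone, with a median of 0.06, and the same counts held without mouse 45. None took a step of 0.5 in both mice, 15 were higher in both and 12 lower in both (33.3% and 26.7%, against 24.5% and 25.0% of all genes). In the wild-type pairs 22 were higher in both and 6 lower. All 3 treated arrays lay above both vehicle arrays for 4 targets and below for 2, where 5.79% and 8% of all genes did (1089 and 1506, or 2256 and 592 after centring).

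Pdk4, the kinase that turns off pyruvate dehydrogenase, is a classical PPAR target. It read 2.43 and 2.79 with vehicle and 2.18, 2.63 and 2.36 with rosiglitazone, in the order of mice 46 and 44 and then 46, 44 and 45 that is kept below. Both pairs were slightly lower with the drug and the groups overlapped, with a difference of -0.22 (SE 0.43, adjusted p = 1.00), or -0.20 without mouse 45. In wild-type mice 42 and 47 Pdk4 was 1.36 and 1.71 higher with the drug, while the unpaired wild-type array of mouse 48 read 2.34, below the wild-type vehicle arrays at 2.45 and 2.54. The knockout minus wild-type difference of responses was -1.19 (SE 0.61), which did not pass the test (limma, adjusted p = 1.00; 0 of 23099 probe sets did, 0%, and 536 had an unadjusted p under 0.05, or 2.32%).

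Angptl4, a secreted inhibitor of lipoprotein lipase, was at 2.92 and 3.50 with vehicle and at 3.06, 3.31 and 4.79 with rosiglitazone. The paired arrays stayed close to their vehicle values and the array of mouse 45 alone was high, so the difference of 0.51 (SE 0.74, limma adjusted p = 1.00) became -0.03 without it. In wild type the paired differences were 1.44 and 2.41, and mouse 48 again read low, at 2.89. Apoc3 and Abcg1, an apolipoprotein and a cholesterol transporter, also read highest in mouse 45, at 4.05 and 4.37. Apoc3 was at 2.34 and 2.90 with vehicle and 2.65 and 3.41 in the treated pair, and Abcg1 at 2.96 and 2.67 against 2.95 and 2.99. Without mouse 45 the fitted differences were 0.41 and 0.15, where they had been 0.75 and 0.62.

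Of 24 genes of lipid droplets and triglyceride enzymes 9 were higher in both paired mice, 5 lower in both and 10 opposite (41.7%, against 50.4% of all genes). In the fit 13 were higher, with a median of 0.02, and 15 without mouse 45. Cidec, a droplet fusion protein, went from 4.25 to 5.17 in mouse 46, from 4.79 to 4.82 in mouse 44, and read 3.68 in mouse 45. Its treated arrays thus lay on both sides of the vehicle arrays, with a fitted difference of 0.03, or 0.47 without mouse 45, while wild-type Cidec was 1.30 and 1.56 higher in the pairs. Plin2, which coats lipid droplets, was at 7.61 and 7.46 with vehicle and 7.71, 7.66 and 7.48 with the drug, a difference of 0.08 (SE 0.23, limma adjusted p = 1.00; 0.15 without mouse 45) beside wild-type pairs of 0.75 and 0.71. Acaa1b, a peroxisomal thiolase, read 2.88 and 3.89 with vehicle and 3.49, 3.70 and 3.02 with the drug. It was up in mouse 46 and down in mouse 44, and its difference of responses was -1.21 (SE 0.53, limma adjusted p = 1.00).

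The mitochondrial oxidation genes Cpt1a and Etfdh of the target list, and Hadha of the fatty acid oxidation list, read a little higher on every treated array. Cpt1a, which admits long-chain fatty acids to mitochondria, read 8.37 and 8.29 with vehicle and 8.72, 8.53 and 8.60 with rosiglitazone. Hadha, a subunit of the trifunctional protein, read 9.11 and 8.91 against 9.41, 9.22 and 9.34, and Etfdh, which passes electrons to ubiquinone, 7.38 and 7.39 against 7.63, 7.60 and 7.66. The groups did not overlap for any of the 3, and the differences of 0.29 (SE 0.18), 0.31 (SE 0.21) and 0.24 (SE 0.18) did not pass the test (limma adjusted p = 1.00 for each). Without mouse 45 they were 0.30, 0.30 and 0.23. Wild-type pairs gave 0.39 and 0.45 for Cpt1a, 0.44 and 0.50 for Hadha and 0.27 and 0.16 for Etfdh. The wild-type array of mouse 48 lay below the vehicle mean for these 3, by differences of -0.18, -0.24 and -0.33, and the difference of responses for Cpt1a was 0.07 (SE 0.26).

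**Figure D2:**
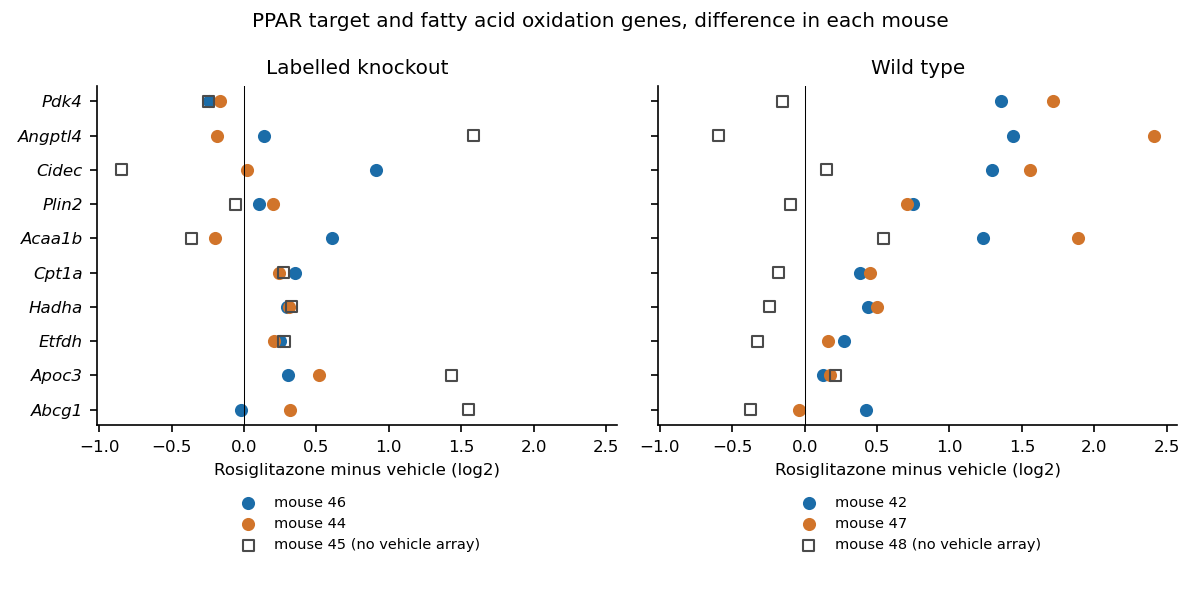
Rosiglitazone minus vehicle (x axis, log2) for 10 genes by mouse, 9 of the PPAR target list and Hadha of fatty acid oxidation: knockout mice 46, 44 and 45 on the left and wild-type mice 42, 47 and 48 on the right, circles for within-pair differences and open squares for mice 45 and 48 against the vehicle mean of their genotype. Pdk4, Angptl4, Cidec, Plin2 and Acaa1b lie high in wild-type mice 42 and 47 and near 0 or scattered in the knockout, while Cpt1a, Hadha and Etfdh lie slightly above 0 in all 3 knockout mice.

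The other fatty acid receptors of the family overlapped between treatments. Ppard read 8.77 and 8.92 with vehicle and 9.02, 8.77 and 8.81 with the drug, and Ppara 3.98 and 3.81 against 4.42, 3.71 and 3.73. Among 19 PPARs, RXRs and coregulators 9 were higher, or 12 after centring and 11 without mouse 45. The proteins that bind thiazolidinediones outside PPARγ were also compared by their transcripts. Mpc1, a subunit of the mitochondrial pyruvate carrier, read 8.98 and 9.62 against 9.32, 9.49 and 9.37, and Cisd1, which encodes mitoNEET, 9.16 and 9.18 against 9.19, 9.39 and 8.95. Both overlapped between groups. Acsl4, an arachidonate-preferring acyl-CoA synthetase that these drugs inhibit, read 9.44 and 9.46 against 9.49, 9.16 and 8.82, a difference of -0.29 (SE 0.18, limma adjusted p = 1.00), or -0.12 without mouse 45, with mouse 46 at about its vehicle level and mice 44 and 45 lower. Of 12 such genes 7 were higher, with or without mouse 45, and none stepped by 0.5 in both mice.

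Slc9a3 is a gene of differentiated colonocytes, and other genes of that list also took shared steps. Of 50 measured, 4 were up by at least 0.5 in both mice (8%, against 0.218% of all genes) and 0 down: Slc9a3, Guca2a, Krt20 and Tmigd1. Tmigd1 belongs to the list, but lies outside the rule for named genes and was named after its values were seen. Of the list 24 were higher in both mice and 10 lower in both (48% and 20%, against 24.5% and 25.0% of all genes). A fitted difference above 0 was found for 27 of 50, or 34 without mouse 45. In wild-type pairs 16 were higher in both and 15 lower. The list was chosen with earlier results of these data known, so the counts are a description with no test, and no gene in it was called by limma.

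To show where transcription of these 4 genes begins, the RefSeq promoter of each (GRCm38.p6, 250 bases before to 50 after the start, the first of 2 entries for Tmigd1) is printed on its gene's strand, with that of Plin2 as a known PPARγ target. Capitals mark AGGTCA or its complement, the half-site that PPAR and RXR bind as a direct repeat.
Slc9a3: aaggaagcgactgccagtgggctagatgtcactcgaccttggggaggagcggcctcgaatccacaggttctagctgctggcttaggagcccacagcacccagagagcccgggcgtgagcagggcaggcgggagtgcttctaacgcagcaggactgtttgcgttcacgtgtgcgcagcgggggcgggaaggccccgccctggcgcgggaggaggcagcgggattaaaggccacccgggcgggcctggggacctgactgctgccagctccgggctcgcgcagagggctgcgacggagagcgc
Guca2a: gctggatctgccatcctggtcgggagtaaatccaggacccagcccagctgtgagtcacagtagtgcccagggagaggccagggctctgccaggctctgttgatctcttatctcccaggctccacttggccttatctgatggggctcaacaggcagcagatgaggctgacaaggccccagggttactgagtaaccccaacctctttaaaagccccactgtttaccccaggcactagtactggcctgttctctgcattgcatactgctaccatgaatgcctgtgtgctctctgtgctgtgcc
Krt20: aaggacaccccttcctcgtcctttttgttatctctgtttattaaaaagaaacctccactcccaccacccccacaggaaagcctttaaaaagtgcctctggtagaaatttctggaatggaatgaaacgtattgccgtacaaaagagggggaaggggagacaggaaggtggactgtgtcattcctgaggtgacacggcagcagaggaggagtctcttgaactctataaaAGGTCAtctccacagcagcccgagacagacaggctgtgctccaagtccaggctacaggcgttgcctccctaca
Tmigd1: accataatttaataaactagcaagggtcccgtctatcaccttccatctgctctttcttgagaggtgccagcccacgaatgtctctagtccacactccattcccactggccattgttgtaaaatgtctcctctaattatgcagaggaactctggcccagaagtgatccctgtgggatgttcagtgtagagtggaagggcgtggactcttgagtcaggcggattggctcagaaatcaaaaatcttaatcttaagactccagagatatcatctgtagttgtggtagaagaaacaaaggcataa
Plin2: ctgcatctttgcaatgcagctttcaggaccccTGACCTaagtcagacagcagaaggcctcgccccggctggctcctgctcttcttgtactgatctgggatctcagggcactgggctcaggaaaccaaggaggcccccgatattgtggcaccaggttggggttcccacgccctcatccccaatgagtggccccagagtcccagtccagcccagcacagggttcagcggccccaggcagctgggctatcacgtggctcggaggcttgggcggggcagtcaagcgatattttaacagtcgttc
The spans are chr13:74121163-74121462 for Slc9a3 (plus strand), chr4:119637482-119637781 for Guca2a (plus), chr11:99438104-99438403 for Krt20 (minus), chr11:76890870-76891169 for Tmigd1 (plus) and chr4:86670010-86670309 for Plin2 (minus). On both strands the searches covered AGGTCA, the full direct repeat of AGGTCA with any 1 base between its copies (DR1), CAAAGTC, which is bound by HNF4, and TTTATNG, which is bound by CDX2. AGGTCA was found at -23 in Krt20 and at -218 in Plin2, where 16.3% of 32851 promoters hold it, and in none of Slc9a3, Guca2a and Tmigd1. The full repeat was in none of the 5 and in 13 promoters in all (0.0396%). Krt20 holds 1 TTTATNG (10.9% of promoters), and CAAAGTC, held by 4.44%, was in none of the 5. The promoter of Pdk4, the classical PPAR target described above, is not printed. It held none of these motifs, so the half-site did not mark both reference targets. A match is a description of these letters, not of binding.

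Slc9a3 encodes the apical sodium-proton exchanger NHE3, through which colonocytes absorb sodium. Its probe set 10406176 read 3.66 and 3.59 with vehicle and 5.10, 4.74 and 5.12 with rosiglitazone. All 3 treated arrays lay more than 1 above both vehicle arrays, so the groups did not overlap. The difference was 1.36 (SE 0.49, unadjusted p = 0.0185, limma adjusted p = 1.00), and 1.29 without mouse 45. With the mouse as a fixed block it was also 1.29, with the smallest unadjusted p of any probe set in that fit, 2.85e-05, and an adjusted p of 0.64. In wild type Slc9a3 was higher with vehicle, at 6.31 and 7.10, and read 5.70, 6.58 and 4.39 with the drug in mice 42, 47 and 48. The treated knockout arrays thus lay above the treated wild-type array of mouse 48 and below the other wild-type arrays. The vehicle knockout arrays lay below every wild-type array.

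Guca2a, which encodes the secreted peptide guanylin, an activator of chloride and fluid secretion, read 4.58 and 5.50 with vehicle and 5.77, 6.41 and 7.45 with rosiglitazone. The groups did not overlap, though the vehicle array of mouse 44 lay only just below the treated array of mouse 46. Its difference was 1.50 (SE 0.47, limma adjusted p = 1.00), or 1.05 without mouse 45. Wild-type Guca2a read 7.25 and 7.22 with vehicle and 6.07, 6.91 and 5.67 with the drug. The gene is also in the goblet cell list, whose median difference was 0.00 in mouse 46, 0.10 in mouse 44 and 0.94 in mouse 45, and whose part in the result was not tested.

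Krt20, a keratin of the surface epithelium, and Tmigd1, an adhesion molecule of the brush border, shared the step in the paired mice but not in mouse 45. Krt20 read 7.47 and 7.14 with vehicle and 8.10, 7.78 and 6.12 with the drug, a difference of 0.03 (SE 0.48), and 0.63 without mouse 45. Tmigd1 read 6.41 and 4.93 against 6.91, 5.68 and 5.46, a difference of 0.35 (SE 0.53), and 0.63 without mouse 45. Both groups overlapped for each gene, and for Tmigd1 the gap between mice exceeded the step within them. Car4 and Slc26a3, a carbonic anhydrase and the chloride-bicarbonate exchanger of mature colonocytes, were far higher in mouse 45 than on the other 4 arrays, at 7.10 and 4.57. Slc26a3 read 2.25 to 2.57 on those arrays. Car4 read 3.92 and 3.88 with vehicle and 4.18 and 4.42 in the treated pairs, so its groups did not overlap. Its difference was 1.33 (SE 1.04), or 0.40 without mouse 45.

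**Figure D3:**
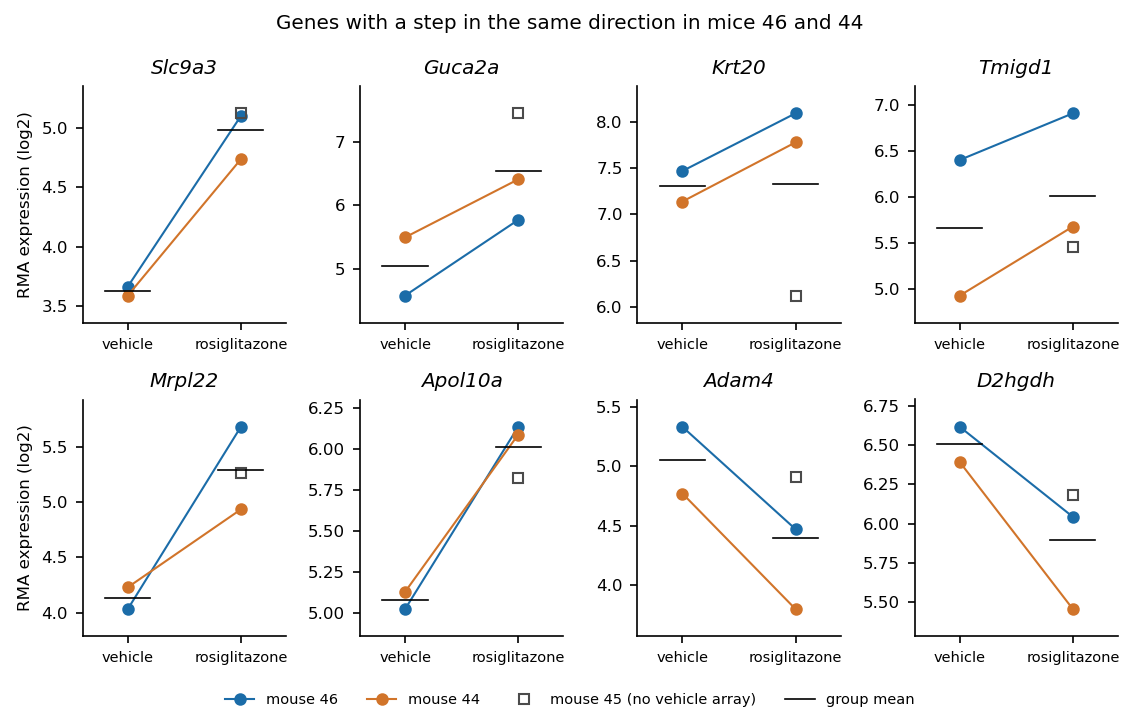
Expression (y axis, log2, not from 0) of 8 genes on the 5 knockout arrays by treatment (x axis), with coloured lines joining the arrays of mouse 46 and of mouse 44, an open square for mouse 45 and black bars for group means. Slc9a3, Guca2a, Mrpl22 and Apol10a are higher on all 3 treated arrays than on both vehicle arrays, Krt20 and Tmigd1 are higher with the drug within both pairs but not in mouse 45, and Adam4 and D2hgdh are lower in both pairs.

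Outside the colonocyte list, genes of mixed function took steps shared by mice 46 and 44. Mrpl22, a protein of the large mitochondrial ribosomal subunit, read 4.03 and 4.23 with vehicle and 5.68, 4.93 and 5.26 with rosiglitazone. Its groups were separated by 0.70, the treated arrays fell near the wild-type range of 4.97 to 5.47, and the difference was 1.16 (SE 0.22, unadjusted p = 0.000354, limma adjusted p = 1.00), or 1.18 without mouse 45. Apol10a, an apolipoprotein L family member, read 5.02 and 5.13 against 6.13, 6.09 and 5.82, below its wild-type range of 6.99 to 8.01 on every knockout array. Its difference was 0.94 (SE 0.28, limma adjusted p = 1.00), or 1.03 without mouse 45.

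Pigr, the receptor that carries IgA across the epithelium, read 6.03 and 7.62 against 6.59, 8.25 and 9.82, so each pair was higher by about the same amount from different starting levels. Cyp2d26, a cytochrome P450, read 6.68 and 6.47 against 7.45, 7.40 and 5.83, higher in the pairs and lower in mouse 45. Zfp566, a zinc finger protein, read 4.83 and 4.99 against 5.36, 5.55 and 5.29, and Abcg2, an efflux pump for drugs and urate, 3.90 and 3.75 against 4.30, 4.46 and 4.17. For both of the latter the groups did not overlap, though Abcg2 did not reach a step of 0.5 in mouse 46.

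Among genes lower in both pairs, Adam4 read 5.33 and 4.77 with vehicle and 4.47, 3.80 and 4.91 with rosiglitazone. The array of mouse 45 lay between its vehicle arrays. Mtfr2, a regulator of mitochondrial fission, read 5.84 and 6.32 against 5.15, 5.68 and 5.82, lower than each mouse's own vehicle array and just below the lower one in mouse 45. D2hgdh, which oxidises D-2-hydroxyglutarate, read 6.62 and 6.39 against 6.04, 5.45 and 6.18, and Mcm9, a helicase of DNA repair, 5.36 and 5.55 against 4.86, 4.93 and 5.26. Both were lower on all 3 treated arrays, and the fitted differences were -0.61 (SE 0.24) and -0.44 (SE 0.16), with limma adjusted p = 1.00, or -0.76 and -0.56 without mouse 45. Zcchc10 read 5.50 and 5.24 against 4.88, 4.69 and 4.80. Here the vehicle arrays were above the wild-type range of 4.67 to 5.08 and the treated arrays inside it. G0s2, an inhibitor of the triglyceride lipase ATGL, was the single lipid droplet gene with a shared step, down from 3.99 and 4.02 to 3.46, 3.48 and 3.61.

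Metallothionein Mt2, a zinc-binding protein, read 8.15 and 9.17 with vehicle and 7.12, 8.67 and 9.72 with the drug. It was lower in both pairs, by differences of -1.03 and -0.50, and highest in mouse 45. In the wild-type pairs the Mt2 differences were -0.90 and -1.28. The list of 20 metallothioneins and zinc transporters had 9 members higher in both paired knockout mice and 4 lower. These were 45% and 20%, against 24.5% and 25.0% of all genes. In the wild-type pairs 0 were higher in both and 10 lower.

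Members of 3 mitochondrial lists were more often above 0 than below in the fit, by small amounts. Of all genes 46% were above 0, or 49% without mouse 45. Of 28 fatty acid oxidation and ketogenesis genes 21 were higher with rosiglitazone, with a median of 0.10, and 23 were without mouse 45, with a median of 0.08. Leaving out 1 array gave medians from -0.04, without the vehicle array of mouse 44, to 0.24, and the median within mouse 46 was -0.01. In the pairs 11 were higher in both mice and 4 lower (39.3% and 14.3%, against 24.5% and 25.0% of all genes). In the wild-type pairs 18 and 6 were. Of 45 oxidative phosphorylation genes 35 were higher, and 29 without mouse 45, led by the complex subunit Ndufa4, which read 7.99 and 7.79 against 8.19, 8.25 and 8.55. Of 70 mitochondrial ribosomal proteins 53 were higher, and 40 without mouse 45, among them Mrpl12 at 8.19 and 8.03 against 8.47, 8.39 and 8.56 and Mrps7 at 7.42 and 7.28 against 7.69, 7.58 and 7.73. The medians of these last lists were 0.06 and 0.08, and no member was called. In mouse 45 they were 0.14 and 0.20. Of the oxidative phosphorylation genes 15 were higher in both paired mice, 7 lower in both and 23 opposite (51.1%, against 50.4% of all genes). Of the ribosomal proteins 23 were higher in both and 17 lower (32.9% and 24.3%, against 24.5% and 25.0% of all genes). For oxidative phosphorylation the median ranged from 0.0038, without the vehicle array of mouse 44, to 0.10 when 1 array was left out.

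Genes of DNA replication and the cell cycle were mostly a little higher in the fit: 32 of 39, with a median of 0.12, and 26 of 39 without mouse 45. In the pairs 15 were higher in both mice, 8 lower in both and 16 opposite. The shares in both were 38.5% and 20.5%, against 24.5% and 25.0% of all genes. The list median was 0.02 in mouse 46, 0.11 in mouse 44 and 0.28 in mouse 45. Mcm3, a subunit of the replicative helicase, read 7.08 and 7.23 against 7.36, 7.63 and 7.70, without overlap. Crypt stem cell and Wnt target genes turned with mouse 45: 19 of 26 were higher with it and 8 without it. In both paired mice 11 were lower and 4 higher (42.3% and 15.4%, against 25.0% and 24.5% of all genes). Lgr5, the stem cell receptor for R-spondin, read 8.71 and 9.56 against 8.65, 9.22 and 9.57, and the stem cell factor Ascl2 4.55 and 6.69 against 4.67, 6.32 and 7.05. In each the mice differed more than the treatments.

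Among stress and defence genes the lists differed. Of 27 NRF2 antioxidant genes 16 were higher in both paired mice and 4 lower (59.3% and 14.8%, against 24.5% and 25.0% of all genes). In both wild-type pairs 14 were higher and 3 lower. In the fit 16 were higher, or 19 without mouse 45, at a median fitted difference of 0.05. Of 34 genes of the unfolded protein and integrated stress response 9 were higher, or 16 after centring, and 16 without mouse 45. Among 27 NF-kappaB genes 11 were lower in both mice and 5 higher (40.7% and 18.5%, against 25.0% and 24.5% of all genes). In the fit 15 were higher and 12 lower, or 13 higher without mouse 45. Birc3, an inhibitor of apoptosis, was above vehicle on all treated arrays at 5.90, 6.44 and 6.12 against 5.70 and 5.68, and the dim chemokine gene Ccl5 was below, at 2.88, 2.91 and 3.03 against 3.46 and 3.27. Abcb1b, which encodes a P-glycoprotein efflux pump, read 6.28 and 6.64 against 5.27, 6.52 and 5.05, a difference of -0.85 (SE 0.37, limma adjusted p = 1.00), or -0.57 without mouse 45.

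The interferon genes Ifit3 and Rsad2 went opposite ways in the paired mice. Of 40 genes of the interferon response and antigen presentation, 25 (62.5%) differed in sign between mice 46 and 44, beside 9494 of all 18820 genes (50.4%). The medians of the list were 0.12 and -0.13 in these mice. In all 10 were higher in the fit, 19 after centring and 18 without mouse 45. Ifit3, an interferon-induced antiviral protein, went from 6.10 to 6.94 in mouse 46 and from 8.06 to 6.89 in mouse 44, and read 4.79 in mouse 45. Rsad2, the antiviral enzyme viperin, went from 4.09 to 4.72 and from 6.27 to 5.22, and read 4.32. For both genes the vehicle arrays of the 2 mice lay far apart and their treated arrays close together. Slc13a1, a sulfate transporter, went from 5.33 to 4.47 in mouse 46 and from 4.70 to 5.58 in mouse 44, while the wild-type differences were -1.69 and -1.32.

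**Figure D4:**
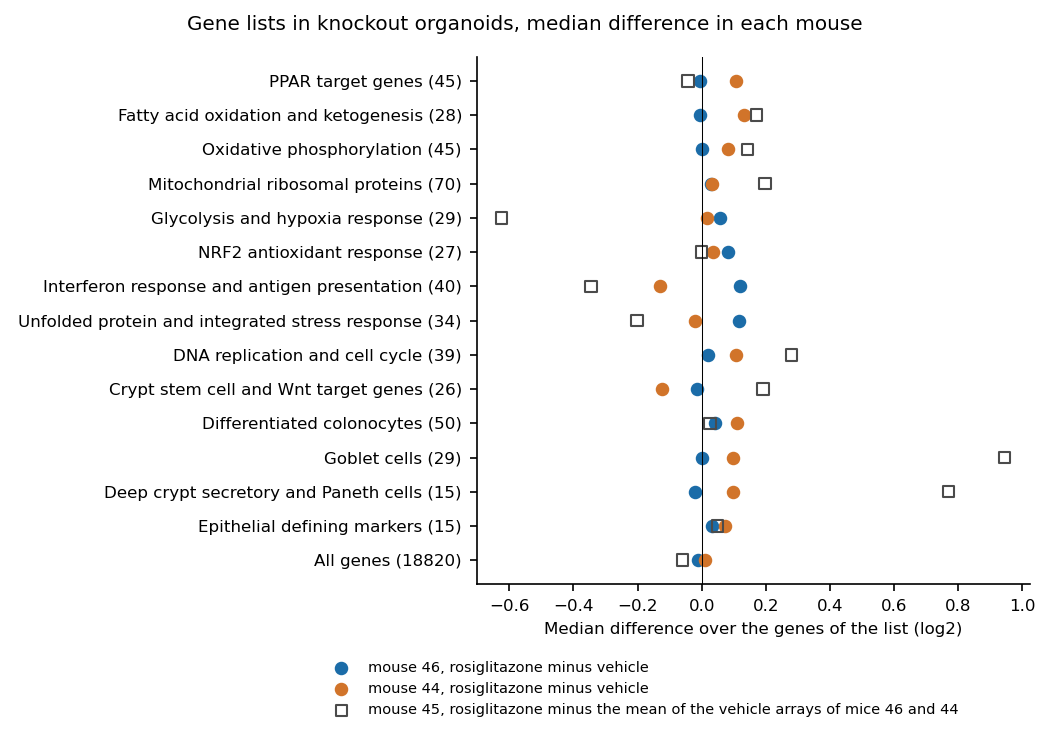
Median rosiglitazone minus vehicle difference (x axis, log2) of 14 gene lists and of all genes in knockout mice 46, 44 and 45, the last against the vehicle mean. The medians of mice 46 and 44 lie between -0.13 and 0.13, whereas mouse 45 stands at 0.94 for goblet cells, 0.77 for deep crypt secretory cells and -0.62 for glycolysis and hypoxia.

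Secretory genes were high on the array of mouse 45. Of 29 goblet cell genes 22 were higher in the fit, with a median of 0.20, and 18 without mouse 45, with a median of 0.05. Muc2, the main secreted mucin of the colon, read 3.71 and 5.60 with vehicle and 3.92, 6.59 and 8.47 with rosiglitazone, and Clca1, a secreted mucus protease, 3.63 and 6.72 against 3.74, 7.97 and 9.26. Mouse 46 was low for both genes under either treatment, mouse 44 was intermediate and about 1 higher with the drug, and mouse 45 was the highest. Agr2, a disulfide isomerase that mucin folding needs, and Spink4, a protease inhibitor of goblet cells, also read highest in mouse 45, at 8.85 and 8.77.

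Among the 15 measured genes of Paneth and deep crypt secretory cells 11 were higher, with a median of 0.22, and 10 without mouse 45, with a median of 0.06. Reg4, the marker of deep crypt secretory cells, read 3.04 and 3.42 with vehicle and 2.49, 5.29 and 7.10 with the drug, lower in mouse 46 and 1.87 higher in mouse 44. On the wild-type arrays it lay between 2.77 and 2.99, so mice 44 and 45 exceeded every other array when treated. Defa24, a defensin of Paneth cells in the small intestine with close paralogs that its probes may also read, was at 2.16 and 2.09 against 1.94, 3.45 and 7.05. Sis, the disaccharidase of the small intestine brush border, read 6.32 in mouse 45 and 2.23 to 3.19 on the other 4 arrays, and 3 of the 13 small intestine genes lay above the median gene, at a list median of 3.40.

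Glycolysis and hypoxia genes were low in mouse 45 and not in the pairs. Of 29 measured 4 were higher in the fit, with a median of -0.18, and 10 after centring. Without mouse 45, 18 were higher, with a median of 0.04. In both paired mice 12 were higher and 2 lower (41.4% and 6.9%, against 24.5% and 25.0% of all genes). Ndrg1, a hypoxia-induced growth regulator, read 8.46 and 9.10 against 8.53, 8.87 and 6.80. Vegfa, the angiogenic factor, read 8.24 and 8.26 against 8.41, 8.09 and 6.83, and the peptide hormone gene Adm 6.83 and 6.89 against 6.61, 7.10 and 4.77. In mice 46 and 44 these genes moved by at most 0.23. P4ha1, a collagen prolyl hydroxylase, and Cyp2s1, an epithelial cytochrome P450, had the same form, at 7.69 and 7.20 in mouse 45 against 8.62 to 9.02 and 9.05 to 9.46.

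**Figure D5:**
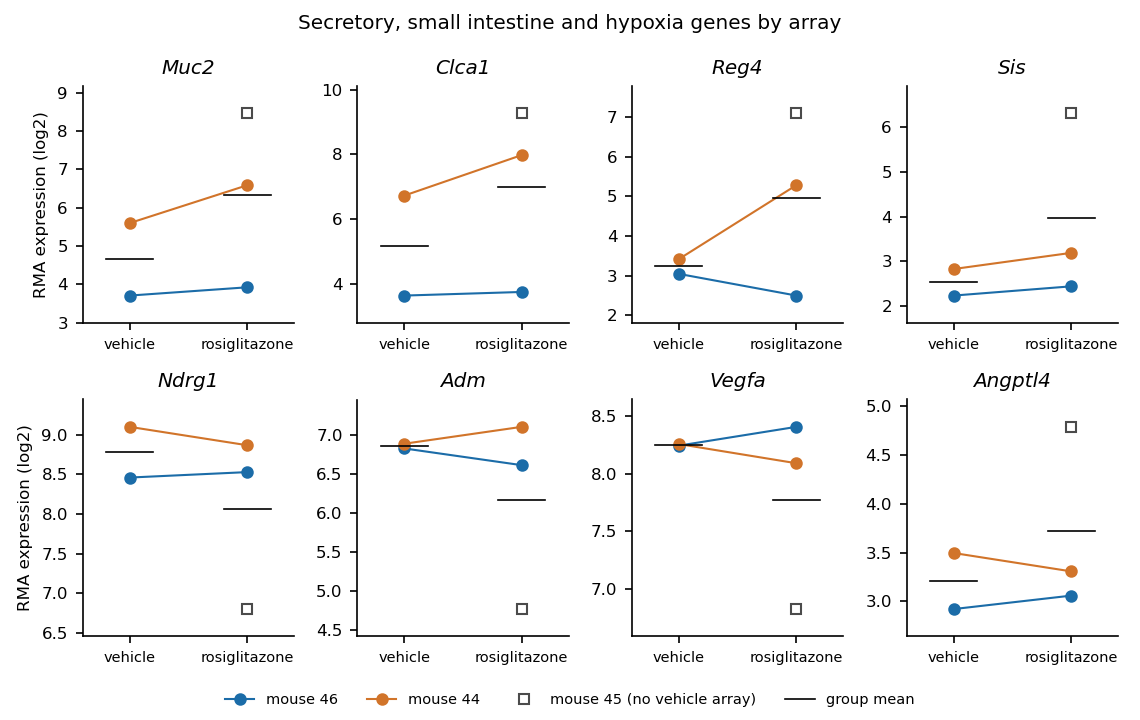
Expression (y axis, log2, not from 0) of 8 genes on the 5 knockout arrays by treatment (x axis), drawn with lines for the pairs of mice 46 and 44, an open square for mouse 45 and black bars for group means. The array of mouse 45 is the highest knockout array for Muc2, Clca1, Reg4, Sis and Angptl4, at 8.47, 9.26, 7.10, 6.32 and 4.79, and the lowest for Ndrg1, Adm and Vegfa, at 6.80, 4.77 and 6.83.

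Mouse 45 also stood apart for Bst1, Cyba, Dmbt1 and Tgfbi. Bst1, an ectoenzyme of crypt cells, read 5.97 and 8.40 with vehicle and 5.91, 8.38 and 3.90 with rosiglitazone, so each pair was unchanged to within 0.06. Cyba, a subunit of NADPH oxidase, read 2.95 and 5.05 against 2.59, 5.01 and 7.26, and Dmbt1, a mucosal scavenger receptor protein, 4.60 and 4.64 against 4.08, 4.71 and 7.73. In wild type Cyba lay between 5.62 and 7.72 and Dmbt1 between 5.14 and 7.95, ranges that held the array of mouse 45 and none of the other knockout arrays. Tgfbi, an extracellular matrix protein, was higher with the drug in both pairs, from 7.62 to 8.19 and from 6.39 to 7.13, and read 5.56 in mouse 45.

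Lists of markers of cells outside the epithelium had low medians, and 1 marker each of the immune, fibroblast and adipocyte lists and 0 endothelial markers lay above the median gene. Of 18 immune cell markers 7 were higher with rosiglitazone, or 11 after centring and 8 without mouse 45, and 1 took a shared step: Cd3e, a chain of the T cell receptor complex, read 2.22 and 2.16 against 2.81, 2.74 and 2.65. Of 16 fibroblast and smooth muscle markers 7 were higher, or 10 after centring, and of 9 adipocyte markers 4, or 5. Of 19 tuft cell genes 7 were higher, or 9 after centring. Without mouse 45 these 3 counts were 7, 4 and 7. Alox5ap, which tuft cells use for leukotriene synthesis, was lower on all treated arrays at 3.28, 3.47 and 3.18 against 3.85 and 3.80, a difference of -0.51 (SE 0.14, unadjusted p = 0.00451, limma adjusted p = 1.00), or -0.45 without mouse 45. Slc10a2, the bile acid transporter of the ileum, was higher, at 4.30, 4.36 and 3.95 against 3.34 and 3.79. At these levels, below the median gene of 4.48, a shared step of 0.5 was met by 23 genes upwards and 37 downwards.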

How the data were processed

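Colonic organoid RNA was hybridised to Affymetrix whole-transcript arrays, with RNA integrity numbers above 8.0 per the labels' protocols. The deposited table holds log2 expression that the authors made with RMA, per the submitters' processing notes; its version and chip definition are not given in the sources used here. Every column was matched to a sample by name, and columns of other samples numbered 0. Of 35556 probe sets the 23099 that the platform annotation lists were tested, and 12457 were left out. A single symbol named 21218 of them, of which 21185 matched RefSeq (GRCm38.p6) by Entrez identifier, and 1881 had several symbols. A gene was represented by its brightest probe set on average, which gave 18820 genes. Probe set positions are not given in the sources used here. Arrays carry no count depth, so their number limits the precision.

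Differences were tested with limma 3.58.1 in R 4.3.3 (lmFit with 4 group means over all 10 arrays, contrasts, eBayes), two-sided, with Benjamini-Hochberg adjustment over 23099 probe sets and a threshold of 0.05. The arrays of mice 46, 44, 42 and 47 are paired because the labels give each the same donor, and the within-donor correlation estimated by duplicateCorrelation (statmod 1.5.0) was 0.438. Within-pair differences are rosiglitazone minus vehicle of 1 mouse, and mouse 45 is set against the vehicle mean. With a fixed block, mouse 45 carries no weight on the response. The procedure was tested on simulated data.

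Named genes are those called in any fit, the 8 smallest p-values in each direction, the largest shared and opposite within-pair differences and gaps of mouse 45 above the median level, members of 35 lists with the largest differences or without overlap, and a fixed set of PPAR and cell type genes, from which the text takes a part. The lists hold 1030 entries, of which 928 matched a gene. The members and lists were chosen with earlier results of these data known. Alternatives covered the donor block, the arrays used, centring, quantile normalization, dim probe sets, array weights and step size.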

Additional observations from a re-analysis of the deposited data

Results flagged for a closer look

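A set of named genes differed with the same sign in all 3 knockout mice and the opposite sign in all 3 wild-type mice. Mice 45 and 48 were set against the vehicle mean of their genotype. A difference of any size counted, and some were very small. They were 0.01 for G0s2 in wild-type mouse 42, and 0.04 for Adam4 and -0.09 for Clca1 in wild-type mouse 47. For each gene, the difference of responses, knockout minus wild type, was tested with limma, and none passed (adjusted p = 1.00 for each). The genes were chosen by these signs on the same arrays, so a difference between the genotypes is built into the choice. The sizes below are descriptions. Of all 18820 genes, 385 (2.05%) were higher in every knockout mouse and lower in every wild-type mouse, and 557 (2.96%) the reverse.

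Among epithelial genes higher in the knockout and lower in wild type, the difference of responses was 2.51 (SE 0.69) for Slc9a3, 2.52 (SE 0.67) for Guca2a and 2.14 (SE 1.14) for Pigr. It was 0.94 (SE 0.40) for the bile acid transporter Slc10a2. For the goblet cell genes it was 2.18 (SE 1.52) for Muc2, 2.87 (SE 2.05) for Clca1 and 2.81 (SE 1.69) for Agr2, and in these 3 the array of mouse 45 was the highest. Bccip had a difference of responses of 0.61 (SE 0.18) and Zfp566 of 0.84 (SE 0.18). With the mouse as a fixed block, mice 45 and 48 carry no weight. The difference of responses was then 1.79 for Guca2a, 0.84 for Pigr, 1.45 for Agr2, 0.55 for Bccip and 0.91 for Zfp566. For Slc9a3 the wild-type array of mouse 48 stood at -2.32 from the vehicle mean, beside -0.62 and -0.52 in the wild-type pairs. Its knockout pairs gave 1.44 and 1.15. For Muc2 the knockout pairs gave 0.22 and 0.99 and the wild-type pairs -0.12 and -0.35. Mice 45 and 48 stood at 3.81 and -1.07 for this gene. Clca1 gave 0.11 and 1.25 in the knockout pairs and -0.38 and -0.09 in the wild-type pairs. There mice 45 and 48 stood at 4.09 and -2.68. The Slc10a2 pairs gave 0.96 and 0.57 in the knockout and -0.55 and -0.25 in wild type.

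The reverse pattern, lower in the knockout and higher in wild type, gave -1.26 (SE 0.49) for Adam4, -1.06 (SE 0.22) for Wfdc6a, -0.89 (SE 0.19) for Zcchc10 and -0.66 (SE 0.20) for G0s2. With the fixed block these were -1.25, -0.89, -0.94 and -0.62.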

How the results depend on the processing

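The count of 0 calls for the knockout response held in every alternative except the random replicate block, with 1 call (Zmpste24), and that for the difference of responses in every alternative run for it, which did not include the knockout arrays alone, all probe sets or array weights. The donor pairing moved counts at an unadjusted p under 0.05: the knockout response went from 706 to 1560 with the random and 1729 with the fixed replicate block, and the difference of responses from 536 to 1147 and 1175. The knockout count was 402 on the knockout arrays alone, 275 for bright probe sets, 1359 over all probe sets and 411 with array weights, and the difference count 187 for bright probe sets. Leaving out each array gave 543 to 1776 and 280 to 1175. Shared steps up and down (41 and 45) became 284 and 300 at a step of 0.3, 1 and 0 at 1.0, 96 and 18 with centred arrays, and 21 and 10 for bright probe sets. Genes without overlap (1089 above, 1506 below) became 2255 and 2370 without mouse 45, 2256 and 592 with centred arrays, and 641 and 531 for bright probe sets; these alternatives for overlap were chosen after seeing the data. Among named genes the sign turned with the fixed replicate block, and equally on the paired mice without a block, for Pparg (0.073), Angptl4 (-0.025), Dmbt1 (-0.23), Cyba (-0.19), Adm (0.0011), Ascl2 (-0.12), Lgr5 (-0.20), Cyp2s1 (0.23), Tgfbi (0.65), Epcam (0.0049) and the difference of responses of Cpt1a (-0.12). With the random block it turned for Lgr5 (-0.081), Tgfbi (0.26) and that of Cpt1a (-0.0135), with array weights for Lgr5 (-0.030), Tgfbi (0.13) and that of Cpt1a (-0.043), and with centring for Tgfbi (0.026). Leaving out an array also turned signs, over the ranges -0.49 to 0.52 for Acaa1b, -1.17 to 0.0011 for Adm, -0.0098 to 3.01 for Agr2, -1.41 to 0.11 for the difference for Angptl4, -0.025 to 0.84 for Angptl4, -0.67 to 1.47 for Ascl2, -2.34 to 0.10 for Bst1, -0.28 to 0.47 for Cidec, -0.10 to 0.12 for Cisd1, -0.13 to 0.21 for the difference for Cpt1a, -0.19 to 2.14 for Cyba, -0.90 to 0.23 for Cyp2s1, -0.23 to 1.60 for Dmbt1, -0.36 to 0.19 for Epcam, -1.85 to 0.10 for Ifit3, -0.35 to 0.63 for Krt20, -0.42 to 0.44 for Lgr5, -0.23 to 0.41 for Mpc1, -0.77 to 0.54 for Mt2, -0.18 to 0.18 for Ppara, -0.060 to 0.092 for Ppard, -0.63 to 0.073 for Pparg, -1.51 to 0.66 for Rsad2, -0.30 to 0.33 for Slc13a1, -0.66 to 0.65 for Tgfbi and -0.39 to 1.09 for Tmigd1. Of 75 genes with a knockout response compared, 51 kept their sign in every setting, among them Slc9a3, Guca2a and Mrpl22. Leaving out an array also turned list medians, over -0.044 to 0.24 for fatty acid oxidation, -0.034 to 0.14 for PPAR targets, -0.12 to 0.19 for crypt stem cell genes, -0.045 to 0.15 for differentiated colonocytes and -0.30 to 0.040 for glycolysis and hypoxia. The cause of these changes was not tested. With 2 vehicle arrays the main fit, which has no donor block, cannot resolve differences near its standard errors. With a fixed mouse block the standard error was 0.21 for Guca2a and 0.12 for Krt20, against 0.47 and 0.48 in the main fit. For Slc13a1 it was larger with the block, at 0.37 against 0.34.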
